A study of Drosophila melanogaster with 4 samples.

Results

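The genes described are those of RNA polymerase II and its general transcription factors in Drosophila BG3 cells. They were the rows of the expression table whose symbol began with Polr2, with Taf and a digit, or with TfII. The rule found 35 of 8806 rows, of which 12 were Polr2 genes, 14 Taf genes and 9 TfII genes. BG3 cells come from the central nervous system of larvae, and their libraries carried high levels of Syp and Imp, neural RNA-binding protein genes, at 19444 to 20619 and 6492 to 7029 normalized reads. These 2 were from a list of 5 neuroblast and temporal genes. In it mira stood at only 14.0 to 24.4 and dpn at 3.05 to 14.0, and wor had no row. Of 5 neuronal genes, elav stood at 531 to 577, whereas the synaptic genes brp and nSyb were near 0 in every library (2.0 to 4.0 reads). Syt1 and Rdl had no row. Of 4 glial genes, moody and nrv2 stood at 5128 to 5625 and 3290 to 3479, and repo, which defines glia, at 76.0 to 90.5. The fourth, Eaat1, stood at 17.9 to 29.5. Of 5 haemocyte genes, He had no row, srp stood at 5928 to 6374, Pxn at 655 to 726 and NimC1 near 0 at 5.98 to 7.87. Hml had 339 and 287 reads in the control and 221 and 239 in the knockdown, without overlap (log2 fold change -0.44, limma adjusted p = 0.103).

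In both groups, cells grown in M3 medium with 10% serum and 10 µg/mL insulin were treated for 30 min with 20 µg of dsRNA and cultured for 4 days, per the labels' protocols. The knockdown group is labelled for Cap-H2, a subunit of the chromosome-compacting complex condensin II, and the control group is labelled Brown, with a wild-type genotype. Each group held 2 libraries of 21539511 to 21935781 reads assigned to named genes or other features, of which the 35 genes took 0.177% to 0.185%. Whether those of 1 group were separate cultures is not in the labels, so every p-value rests on a spread between samples that may be technical. The question was how expression of the transcription machinery differed after Cap-H2 depletion. In bulk RNA, fewer cells of a type and less RNA per cell cannot be told apart.

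RNA polymerase II transcribes all protein-coding genes. At a core promoter TFIID, built of the TATA-binding protein and its associated factors (TAFs), is joined by TFIIA and TFIIB, then by the polymerase with TFIIF, and last by TFIIE and TFIIH, which opens the DNA. The polymerase shares several small subunits with RNA polymerases I and III, and some TAFs are also part of the histone acetyltransferase complex SAGA. TfIIS acts later, by rescuing polymerase that has stalled during elongation. Sequences of these genes are not printed here.

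None of the genes was called by the test used, which does not show that they were unchanged. With limma on log2 of the normalized count plus 1, 0 of the 34 tested genes had a Benjamini-Hochberg adjusted p under 0.05, beside 0.39% of all 7690 tested rows (0.325% higher and 0.065% lower in the knockdown). With so small a share of all rows called, 0 of 34 does not set these genes apart. The adjusted p ranged from 0.587 to 0.985. Only Taf4 had an unadjusted p under 0.05, that is 2.94% of the 34 beside 8.13% of all tested rows. On the recovered whole reads edgeR also called 0 and had 1 at an unadjusted p under 0.05, and DESeq2 called 0 but gave no adjusted p for 29 of the 34. The log2 fold changes ran from -0.11 to 0.13 with a median of -0.02, beside a median of -0.00 over all tested rows. Values below 0 were seen in 21 of the 34 (61.8%), beside 50.1% of all tested rows. The 95% intervals of all 34 lay within a log2 fold change of 0.5 in either direction, and those of 26 within 0.25.

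**Figure D1:**
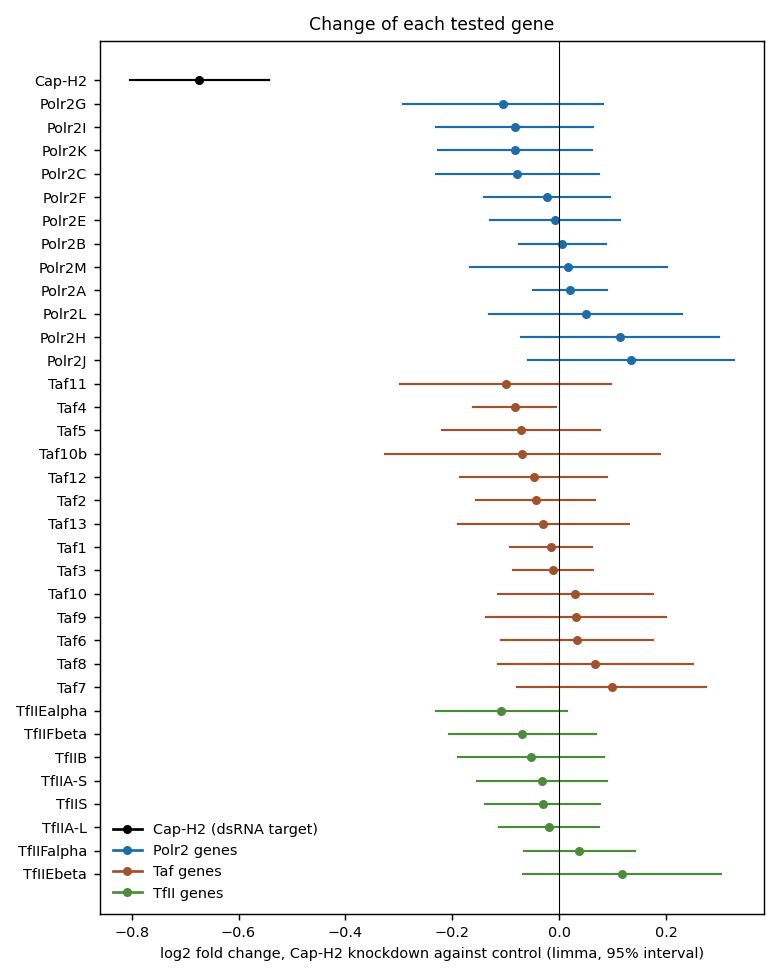
Log2 fold change of each tested gene in the knockdown against the control, with limma's 95% interval, by gene group, with Cap-H2 at the top. The 34 genes lie between -0.11 and 0.13, and Cap-H2 at -0.67.

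Cap-H2 itself, which checks the labels, stood at 880 and 873 normalized reads in the control and at 543 and 555 in the knockdown. It fell to 62.7% of the control (log2 fold change -0.67, SE 0.06, 95% interval -0.80 to -0.54, limma adjusted p = 1.5e-05). The reduction was partial and was measured in RNA only.

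TfIIFbeta, the small subunit of TFIIF, is the neighbour of Cap-H2 on chromosome 3R. In dm6 coordinates Cap-H2 (FBgn0037831) spans 10761310 to 10766756 on the plus strand and TfIIFbeta (FBgn0010421) spans 10766622 to 10767804 on the minus strand. The genes converge, and their last 135 bp are shared. All of these bases lie in the 3′ UTR of both genes, with 0 coding bases, and they make up 12.1% of the 1118 bp of TfIIFbeta exons and 3.30% of those of Cap-H2.

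**Figure D2:**
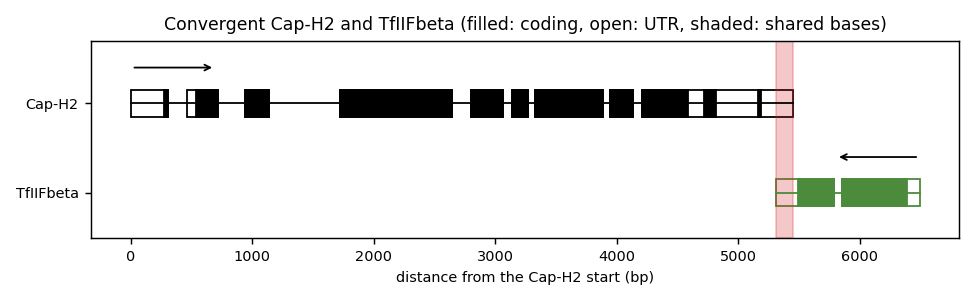
Exons of Cap-H2 and TfIIFbeta against distance from the Cap-H2 start in bp, with coding parts filled, untranslated parts open and arrows for the direction of transcription. The shaded 135 bp at the 3′ ends are the bases that both genes share.

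TfIIFbeta had 661 and 638 normalized reads in the control and 609 and 629 in the knockdown. Both knockdown libraries were below both control libraries, with 9 reads between the nearest ones as rounded here and 23 between the control libraries. The log2 fold change was -0.07 (SE 0.065, 95% interval -0.21 to 0.07, limma adjusted p = 0.822), so a fall as large as that of Cap-H2 lies outside the interval. With each library left out in turn it ran from -0.09 to -0.04. TfIIFalpha, the large subunit, had 1167 and 1156 reads in the control and 1187 and 1198 in the knockdown (log2 fold change 0.04, SE 0.05, 95% interval -0.07 to 0.14, limma adjusted p = 0.883). Its groups did not overlap either, in the opposite direction.

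Reads from the shared bases can be assigned to a gene only if the counting used strand. The library kit keeps strand, per the labels' protocols, but the strand setting of the counting is not known from the sources used here. In the annotation used here, 407 genes have exons wholly inside exons of the opposite strand and share no base on their own strand. The expression table held 38 of them, and why the others were absent was not tested. Among the 38 the median of the means was 43.1 normalized reads. A mean of at least 100 was found in 14, and dUTPase had 3357. Run without strand, HTSeq would by default set such reads apart as ambiguous, provided that the authors' annotation has the same exons.

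Among the catalytic core of the polymerase, Polr2A, the largest subunit, which carries the C-terminal repeat domain, had 4814 and 4739 normalized reads in the control and 4853 and 4833 in the knockdown. Polr2B, which forms the active site together with Polr2A, had 2826 and 2971 in the control and 2902 and 2918 in the knockdown. The log2 fold change was 0.02 for Polr2A (SE 0.03, 95% interval -0.05 to 0.09, limma adjusted p = 0.913). For Polr2B it was 0.01 (SE 0.04, 95% interval -0.08 to 0.09, limma adjusted p = 0.985), and without control library 1 it was -0.030. These are the narrowest intervals among the Polr2 genes. Both knockdown libraries of Polr2A lay above both control libraries by less than the gap between the control libraries, and those of Polr2B lay between the control libraries.

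The other subunits found only in RNA polymerase II were lower in depth. Polr2C and Polr2J encode the assembly platform of the enzyme, where their proteins bind each other. Polr2C had 585 and 534 reads in the control and 533 and 526 in the knockdown, and Polr2J had 324 and 377 in the control and 389 and 379 in the knockdown. The log2 fold change was -0.08 for Polr2C, with an SE of 0.07 and a limma adjusted p of 0.818, and 0.13 for Polr2J, with an SE of 0.09 and a limma adjusted p of 0.742. Neither group pair overlapped, but control library 2 of each gene was within 2 reads of a knockdown library. Without control library 1 the values were -0.012 and 0.025, and without control library 2 they were -0.14 and 0.24. Polr2G, part of the stalk, had 359 and 352 reads against 347 and 315 (log2 fold change -0.11, SE 0.09, limma adjusted p = 0.804). Polr2I, whose yeast counterpart bears on transcription accuracy, had 665 and 608 against 614 and 587 (-0.08, SE 0.07, limma adjusted p = 0.804). The groups of Polr2G did not overlap and those of Polr2I did. For Polr2G, dropping knockdown library 2 gave -0.035 and dropping knockdown library 1 gave -0.18. For Polr2I, dropping control library 1 gave -0.019 and dropping control library 2 gave -0.15. Polr2M, named like human POLR2M (Gdown1), which binds the polymerase and competes with TFIIF, had 344 and 325 reads against 335 and 342, and its groups overlapped.

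Polr2E, Polr2F, Polr2H, Polr2K and Polr2L encode the subunits shared by all 3 nuclear RNA polymerases. Their log2 fold changes ran from -0.08 for Polr2K to 0.11 for Polr2H, with limma adjusted p from 0.786 to 0.985. Polr2K had 578 and 599 reads in the control and 546 and 564 in the knockdown, and was the only one of the 5 whose groups did not overlap. Polr2H had 367 and 397 in the control and 440 and 388 in the knockdown, and its value was 0.023 with knockdown library 1 dropped and 0.20 with knockdown library 2 dropped. Polr2L had 425 and 474 against 496 and 436, and Polr2E had 847 and 888 against 874 and 852. In both of these the libraries of a group differed by more than the groups did. Polr2F had 922 and 945 reads in the control and 899 and 939 in the knockdown.

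The 8 tested TfII genes, TfIIS included, gave log2 fold changes from -0.11 for TfIIEalpha to 0.12 for TfIIEbeta. TfIIB, which bridges the promoter complex and the polymerase, had 839 and 822 normalized reads in the control and 851 and 754 in the knockdown (log2 fold change -0.05, SE 0.06, limma adjusted p = 0.873). The knockdown libraries lay on either side of the control, and without knockdown library 2 the value turned to 0.03. TfIIA-L and TfIIA-S encode the subunits of TFIIA, which steadies TBP on DNA. TfIIA-L had 1741 and 1831 reads against 1751 and 1773, TfIIA-S had 851 and 821 against 813 and 823, and their log2 fold changes were -0.02 and -0.03. TfIIS had 1413 and 1316 reads in the control and 1310 and 1359 in the knockdown (-0.03, SE 0.05, limma adjusted p = 0.913). The groups of TfIIA-L, TfIIA-S and TfIIS overlapped.

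TfIIEalpha and TfIIEbeta, the subunits of the factor that recruits TFIIH, had values of opposite sign. TfIIEalpha had 874 and 850 reads in the control and 814 and 786 in the knockdown, and TfIIEbeta had 337 and 338 in the control and 349 and 384 in the knockdown. The groups of neither gene overlapped. The log2 fold change was -0.11 for TfIIEalpha (SE 0.06, 95% interval -0.23 to 0.01, limma adjusted p = 0.655). For TfIIEbeta it was 0.12 (SE 0.09, 95% interval -0.07 to 0.30, limma adjusted p = 0.775). Knockdown library 2 was the farther one from the control in both genes, and without it the values were -0.08 and 0.05. Without knockdown library 1 they were -0.13 and 0.19.

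Of the 14 Taf genes, 9 had a negative log2 fold change (64.3%, beside 50.1% of all tested rows) and 5 a positive one, from -0.10 for Taf11 to 0.10 for Taf7. Taf4, a scaffold of TFIID that activators contact, had 4471 and 4590 normalized reads in the control and 4154 and 4401 in the knockdown. The knockdown libraries were both lower, and they differed from each other by more than the control libraries did. The log2 fold change was -0.08 (SE 0.04, 95% interval -0.16 to -0.0054, unadjusted p = 0.0375, limma adjusted p = 0.587). Dropping knockdown library 1 brought it to -0.04, and dropping knockdown library 2 to -0.12. The edgeR adjusted p was 0.574, and over all alternatives the lowest adjusted p of Taf4, and of any of the 34, was 0.328, in the fit with a replicate block.

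Taf1, the largest TAF, with bromodomains that bind acetylated histones, had 3788 and 3792 reads in the control and 3669 and 3834 in the knockdown (log2 fold change -0.02, SE 0.04, 95% interval -0.09 to 0.06). Taf2, which contacts DNA at the transcription start, had 1102 and 1066 against 1034 and 1069 (-0.04, SE 0.05). Taf3, which bears a PHD finger and lies on chromosome 4, had 4377 and 4289 against 4207 and 4391 (-0.01, SE 0.04). In all 3 a knockdown library lay within the range of the control or above it, and the limma adjusted p was 0.949 for Taf1, 0.868 for Taf2 and 0.964 for Taf3.

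Taf9, Taf10b and Taf12 are also subunits of fly SAGA, and in yeast SAGA the counterparts of Taf5, Taf6 and Taf10 are present as well. Taf5, the WD40 scaffold, had 531 and 537 reads in the control and 512 and 506 in the knockdown (log2 fold change -0.07, SE 0.07, limma adjusted p = 0.832). Its groups did not overlap, and leaving out a library moved the value only between -0.08 and -0.06. Taf6 had 562 and 562 against 583 and 568, without overlap and in the other direction (0.03, SE 0.07, limma adjusted p = 0.930). Taf9 had 504 and 466 against 524 and 468, and Taf12 had 763 and 697 against 690 and 721, with overlapping groups in both. Taf7, which binds Taf1, had 421 and 451 against 437 and 498. Its value rested on single libraries, with 0.0028 when knockdown library 2 was dropped and 0.19 when knockdown library 1 was. Taf8 had 329 and 345 against 362 and 344. The histone-fold genes Taf11 and Taf13 had 297 and 318 against 280 and 293, and 493 and 551 against 513 and 509.

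**Figure D3:**
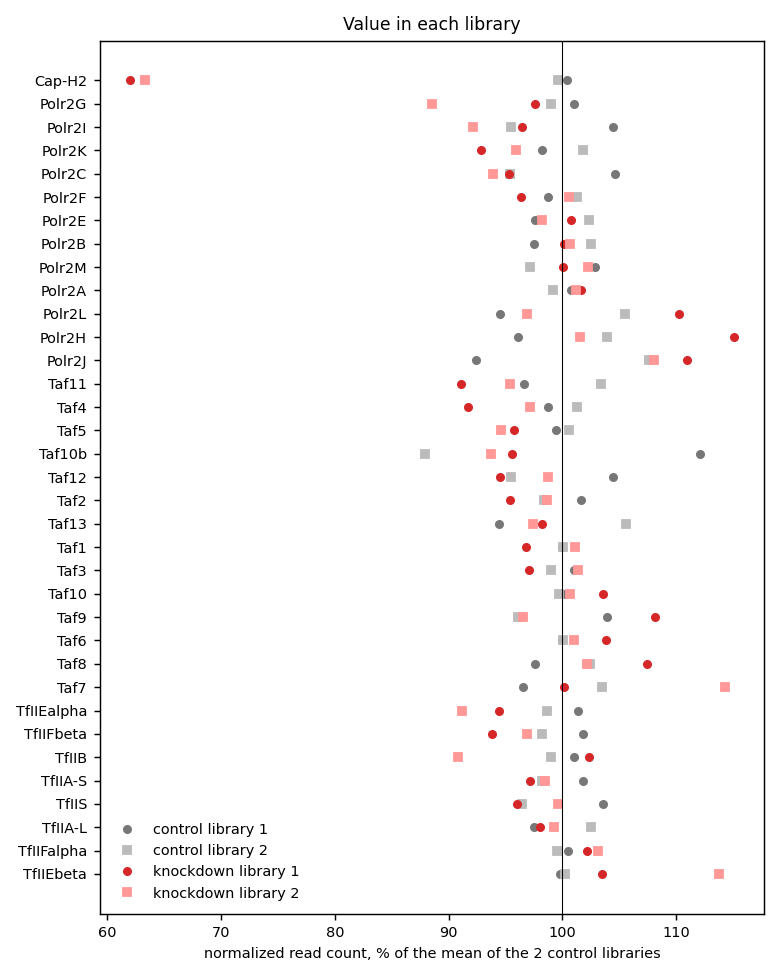
Normalized read count of each gene in each library as a percentage of the mean of the 2 control libraries, with control in grey, knockdown in red, circles for library 1 and squares for library 2. In most rows the libraries of a group are as far apart as the groups, and Cap-H2 in the top row lies near 62.7% in the knockdown.

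Taf10 and Taf10b are paralogs that lie head to head on chromosome arm 2L. In dm6 Taf10b (FBgn0026324) spans 2767286 to 2767845 on the minus strand and Taf10 (FBgn0028398) spans 2767890 to 2768612 on the plus strand, so 44 bp separate their starts. Taf10 had 549 and 546 reads in the control and 567 and 551 in the knockdown, and Taf10b had 254 and 199 in the control and 216 and 212 in the knockdown. The groups of Taf10 did not overlap (log2 fold change 0.03, SE 0.07, limma adjusted p = 0.944). The knockdown libraries of Taf10b lay between the control libraries, and its log2 fold change of -0.07 turned to 0.11 without control library 1. Per kilobase of exon, Taf10 was higher than Taf10b in each library, by a ratio of 1.82 and 2.31 in the control and of 2.21 and 2.19 in the knockdown. The only other members less than 100 kb apart were Taf5 and Polr2E, with 18.4 kb between them on chromosome arm 2R.

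The TFIIA small subunit gene also has a paralog, TfIIA-S-2, on the X chromosome. It had 5 and 2 reads in the control and 3 and 5 in the knockdown, and was left out of the test since its mean was below 10 normalized reads. TfIIA-S had between 811 and 865 reads in the same libraries.

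Levels per kilobase of exon, the scale on which genes can be compared with each other, spanned 8.57-fold among the 34 tested genes. Polr2F was the highest at 1713 normalized reads per kb over the 4 libraries, followed by Polr2K at 1620 and TfIIA-S at 1341. Ranges over libraries overlapped for Polr2F and Polr2K, at 1663 to 1747 and 1548 to 1697, and did not overlap for Polr2K and TfIIA-S, at 1317 to 1380. The lowest were Taf7 at 199.9, Taf5 at 221 and Taf8 at 257, of which Taf7 (186 to 220.5) and Taf5 (214 to 227) overlapped. TfIIA-S-2 stood at 8.11. Of the 34 genes, 27 were above the median of the tested protein-coding genes, and the median gene was at the 69.6th percentile.

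**Figure D4:**
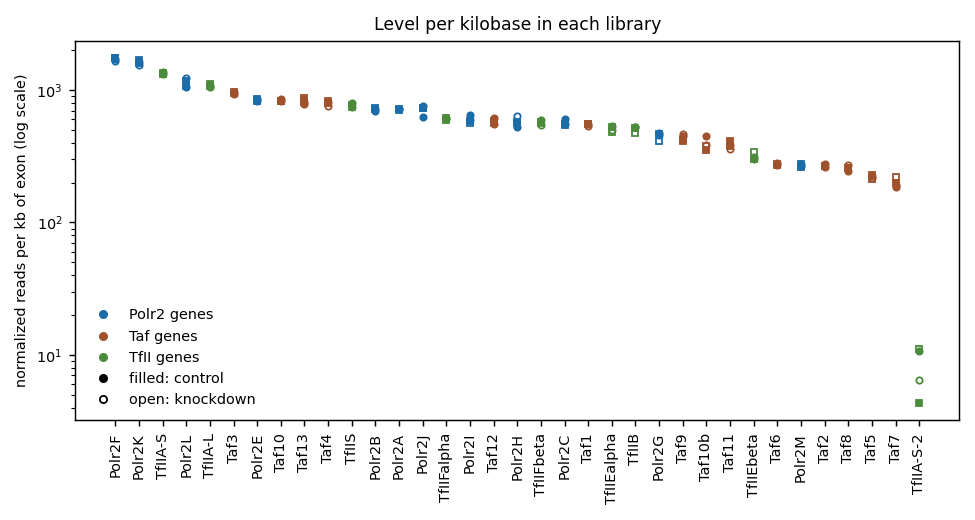
Normalized reads per kb of exon for each gene in each library, on a log axis, ordered by the mean, with control filled and knockdown open. Polr2F, Polr2K and TfIIA-S are highest, and TfIIA-S-2 stands far below the others at 8.11.

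Polr2A and Polr2B, which each enzyme contains once, had levels of 714 and 715 normalized reads per kb, with ranges of 703 to 720.5 and 696 to 732. Of the subunits found only in RNA polymerase II, Rpb4, the partner of Polr2G in the stalk, matched no row and so was not analysed here. The other 6 of the core lay between 452 (Polr2G) and 715. Of the 5 subunits shared with the other polymerases, Polr2F, Polr2K, Polr2L at 1130 and Polr2E at 840 were above all of these, while Polr2H at 575 was within their range. Polr2K, Polr2L and Polr2F are also short, with 353, 405 and 541 bp of exons, and the part of transcript length in these levels was not tested. Polr2M stood at 270, below every other Polr2 gene.

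Ratios of levels per kilobase between proteins known to bind each other were computed for 11 pairs, chosen after the values were seen, Taf10 and Taf10b included as paralogs. In 4 pairs (36.4%) the groups did not overlap, beside 38.7% of single rows, where the smallest p that exact permutation of 2 libraries against 2 allows is 0.333. The ratio of TfIIEalpha to TfIIEbeta was 1.79 and 1.74 in the control and 1.61 and 1.42 in the knockdown, with means of 1.77 ± 0.0399 and 1.51 ± 0.139 (SD, n = 2 each). TfIIFalpha to TfIIFbeta stood at 1.02 and 1.05 in the control and 1.12 and 1.10 in the knockdown. The ratio of Polr2C to Polr2J was 0.962 and 0.753 in the control and 0.730 and 0.739 in the knockdown, where the gap between the control libraries was larger than that between the group means. Polr2A to Polr2B was 1.03 and 0.961 against 1.01 and 0.998.

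**Figure D5:**
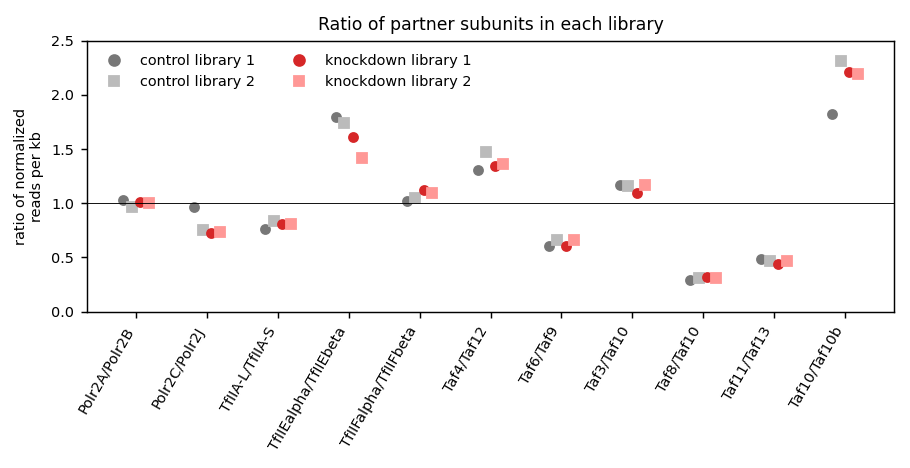
Ratio of normalized reads per kb between partner subunits in each library, with control in grey and knockdown in red. TfIIEalpha/TfIIEbeta lies lower in both knockdown libraries (1.61 and 1.42) than in the controls (1.79 and 1.74), and most other pairs overlap.

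In TFIID the histone-fold partners differed in level. Taf6 was lower than Taf9, with ratios of 0.610 and 0.659 in the control and 0.608 and 0.663 in the knockdown. Taf11 to Taf13 stood at 0.487 and 0.466 against 0.442 and 0.466, where the groups were kept apart only by the fourth decimal. Taf4 exceeded Taf12 in every library, with ratios from 1.31 to 1.47. Taf10, which pairs with Taf3 or Taf8, was close to Taf3 (Taf3 to Taf10 between 1.09 and 1.17) and well above Taf8 (Taf8 to Taf10 between 0.296 and 0.316).

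Groups without overlap were found in 14 of the 34 genes (41.2%), 6 higher and 8 lower in the knockdown, beside 38.7% of all tested rows (19.2% higher and 19.5% lower). In 28 of the 34 the libraries of at least 1 group differed by more than the group means did. That count was not made over all tested rows, so it does not set these genes apart. The SE of the fold change had a median of 0.07 and was 1.19 times the SE from counting reads alone (median, range 1.10 to 1.69). The highest of these multiples, 1.69, was that of Taf4. The SE is limma's, with 14.4 prior and 2 residual degrees of freedom, so the multiples are not each gene's own spread alone. Mean levels ran from 220 reads in Taf10b to 4810 in Polr2A, and the SE from 0.12 to 0.03.

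Exons of 17 of the 35 genes share bases with a gene on the opposite strand, and those of 0 with a gene on the same strand. The share was above 10% in 7 genes, with the largest in TfIIB, whose exons share 430 of 1604 bp (26.8%) with TBC1D16, and in Taf3, which shares 895 of 4514 bp (19.8%) with the antisense RNA CR45126. TBC1D16 had 29.5 to 45.9 normalized reads and CR45126 had 21.6 to 34.5, far below TfIIB and Taf3. Of the 14 overlapping partners that were tested, Cap-H2 was the only one past the threshold.

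Other genes of transcription were taken from lists in which 75 genes outside the members were tested. By limma 0 of the 75 passed, beside 0.39% of all tested rows, and 8 (10.7%) had an unadjusted p under 0.05, beside 8.13%. Both edgeR and DESeq2 called 0, with no adjusted p from DESeq2 for 62. The median log2 fold change was -0.02, beside -0.00 over all tested rows. Values below 0 were seen in 46 of the 75, beside 50.1% of all tested rows. Tbp, the TATA-binding protein gene, had 449 and 447 normalized reads in the control and 476 and 473 in the knockdown (log2 fold change 0.08, SE 0.07, limma adjusted p = 0.816). Its groups were tight and did not overlap. Trf2, a TBP paralog that serves promoters without a TATA box, had 8923 and 8961 against 9186 and 9803 (0.09, SE 0.03, limma adjusted p = 0.518). Trf, a TBP paralog that acts with RNA polymerase III in flies, had 176 and 182 against 151 and 144 (-0.28, SE 0.12, limma adjusted p = 0.571).

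The 9 tested TFIIH genes had 3 positive and 6 negative values with a median of -0.07 (lowest limma adjusted p = 0.723), and the smallest p were those of Ssl1 at -0.12 and Mat1, of its kinase module, at -0.10. Of the 20 pausing and elongation genes, 6 were positive and 14 negative, with a median of -0.02. Over all tested rows 50.1% were below 0, and no list was tested as a set. CycT, the cyclin of the pause-release kinase P-TEFb, had 3691 and 3622 reads in the control and 3835 and 4140 in the knockdown (log2 fold change 0.12, SE 0.04, limma adjusted p = 0.314). The Paf1 complex gene hyx had 1405 and 1458 against 1292 and 1331 (-0.13, SE 0.05, limma adjusted p = 0.499). Among 6 genes of C-terminal domain phosphatases and termination, Ssu72 had 607 and 595 reads against 542 and 505 (-0.20, SE 0.07, limma adjusted p = 0.403), and Fcp1 had -0.09 with overlapping groups.

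The 18 SAGA genes outside the TAFs had 10 positive and 8 negative values and a median of 0.02, with Nipped-A at 0.06 and Sf3b5 at -0.15 holding the smallest p. The 7 RNA polymerase I genes had a median of -0.07, with Polr1E at -0.29 (SE 0.12, limma adjusted p = 0.566) and Polr1F at -0.16. For Polr1E knockdown library 2 stood apart, at 240 reads beside 338, 355 and 336. The 11 genes of RNA polymerase III and its factors had a median of -0.02. Polr3I had 172 and 161 reads in the control and 228 and 208 in the knockdown, a log2 fold change of 0.39 (SE 0.12, 95% interval 0.14 to 0.63, limma adjusted p = 0.259), and Polr3A had 0.09. Of 5 testis paralogs of TAFs, only mia matched a row, with 391 and 367 reads against 405 and 346 (-0.02, limma adjusted p = 0.982).

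In the authors' deposited table the log2 fold changes of the 35 genes ran from -0.0030 to 0.0015, with a lowest adjusted p of 0.999, while 32 of its 8809 rows had an adjusted p under 0.05. The authors' deposited table gives Cap-H2 a log2 fold change of -0.64. For the 35 genes its fold changes lie much closer to 0 than the group means of the expression table do, so they were not set against the fold changes above. The authors' deposited unadjusted p was under 0.05 for 0 of the 35. Its lowest value was 0.0958, for Taf4, beside a limma unadjusted p of 0.0375.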

How the data were processed

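The submitters' processing notes name fastp, HISAT2, HTSeq and the build dm6, without versions, annotation or strand setting. The authors deposited normalized read counts, a signal equal to read counts divided by 1 size factor per library. Dividing by the smallest value returned whole reads for 100% of values (tolerance 0.001). The 3 special HTSeq rows, 11.5% to 13.9% of reads, were left out. A second table holds the authors' deposited log2 fold changes and p-values.

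Rows were matched to Ensembl BDGP6.54 (dm6 coordinates), and all 35 members matched by symbol. The main test was limma 3.58.1 in R 4.3.3 (trended empirical Bayes, two-sided, Benjamini-Hochberg adjustment) on log2(value + 1). It ran on 7690 rows whose mean reached 10. Fold changes on this scale are understated for low genes. Levels per kb use the union of exons. Intervals are limma's 95% intervals. The spread rests on 2 residual degrees of freedom plus 14.4 from limma's prior. edgeR 4.0.16 and DESeq2 1.42.0 were run on whole reads. The fit was tested on simulated data with the same spread set for every gene and library. That run does not cover libraries that differ as unevenly as these. Chi-square per degree of freedom between libraries was 2.97 to 7.96, so none was a duplicate. It was 2.97 between the knockdown libraries and 5.08 between the control libraries. Control library 2 was closer to knockdown libraries 1 and 2 (4.12 and 4.27) than to control library 1. Control library 1 was the farthest from the knockdown libraries (6.61 and 7.96).

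Every member was named, with the leading 2 genes of each list. Members and lists were chosen with earlier results of these data known.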

Additional observations from a re-analysis of the deposited data

How the results depend on the processing

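Under each of the 15 alternatives 0 of the members were called. The median of the members stayed between -0.03 and -0.01, and the fold change of TfIIFbeta between -0.09 and -0.04. Over the transcriptome 30 rows were called, against 14 with quantile normalization, 59 with robust empirical Bayes, 146 with a replicate block and 43 to 127 when a library was left out. In those last fits a group of 1 library borrowed its spread from the other group. For the members and Cap-H2 the replicate block changed no call (TfIIFbeta -0.07, limma adjusted p = 0.825). Same-numbered libraries did not deviate together over all tested rows (r = -0.03 between the library differences of the groups), so the numbers were not taken as pairs. DESeq2 gave no adjusted p for Cap-H2 or for 29 members, which were not judged by it. Signs turned for small values: with median centring Polr2E stood at 0.0069 and Taf3 at 0.0026, and with quantile normalization Polr2B at -0.0063 and Polr2E at 0.0022. Leaving out a library gave ranges through 0 for Polr2B (-0.030 to 0.042), Polr2E (-0.041 to 0.027), Polr2F (-0.054 to 0.0085), Polr2L (-0.044 to 0.14), Polr2M (-0.025 to 0.058), Taf1 (-0.047 to 0.016), Taf3 (-0.043 to 0.019), Taf9 (-0.050 to 0.11), Taf10b (-0.24 to 0.11), Taf12 (-0.11 to 0.017), Taf13 (-0.11 to 0.051), TfIIA-L (-0.055 to 0.017), TfIIB (-0.14 to 0.034) and TfIIS (-0.082 to 0.020). For the other 20 members the sign held in every alternative, but leaving out a library moved 16 of them by over 1.5 times, among them Taf7 (0.0028 to 0.19), Polr2H (0.023 to 0.20), Polr2G (-0.18 to -0.035), Polr2I (-0.15 to -0.019) and TfIIA-S (-0.057 to -0.0057). The other 4 were Polr2K, Taf5, TfIIEalpha and TfIIFalpha. The cause of these shifts was not tested. The median level per kb was 575, and 569 to 580 without a library.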
